A study of Mus musculus with 2 samples.

Results

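The genes of mitochondrial respiration were followed here in immune cells of mouse tumours, from both genomes that encode them. Symbols that begin with Nduf, Uqcr, Cox4, Cox5, Cox6, Cox7, Cox8, Atp5 or mt- were taken, without pseudogenes marked -ps. Of 133 symbols that matched, 104 had at least 200 UMIs (unique molecular identifiers, the counted molecules) over both libraries and were kept, out of 55357 genes in the matrices, of which 12625 had that many UMIs. They comprised 88 nuclear genes and 16 mitochondrial ones. The nuclear genes were 38 named as subunits of complex I, 8 complex I assembly factors and 8 subunits of complex III. The others were 17 genes of complex IV, including Ndufa4 and Ndufa4l2, and 17 genes of ATP synthase. In the gene models used here for coordinates Ndufb4c is a processed pseudogene, and the entry of Ndufb1 is named Ndufb1-ps and non-coding. The mitochondrial genes were all 13 messenger RNAs, both ribosomal RNAs (mt-Rnr1 and mt-Rnr2) and 1 transfer RNA. The least abundant genes kept were mt-Tc with 200 UMIs, mt-Nd4l with 242 and Ndufb4c with 437. The nearest genes below the limit were mt-Ts2 with 128, mt-Td with 102 and mt-Ta with 80. Cox8b and Cox8c, muscle and testis forms of a complex IV subunit, had 0 and 2 UMIs and fell below it.

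The respiratory chain of the inner mitochondrial membrane passes electrons from NADH to oxygen through complexes I, III and IV and pumps protons, and ATP synthase uses the proton gradient to make ATP. Most subunits are encoded in the nucleus and imported, while a small core of complexes I, III and IV and ATP synthase is encoded in mitochondrial DNA, so both genomes have to be expressed for a complete complex. Macrophages are known to shift between respiration and glycolysis with oxygen supply and activation, and several complex IV subunits have isoforms that are used in particular tissues or in low oxygen.

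MC38 mouse colon carcinoma cells had been implanted under the skin of C57BL/6 mice, and CD45+ cells were sorted from the digested tumours for 10x 3' v3 single-cell RNA sequencing. The control group was named UEIS LSL and the other UEIS KI, and no label expands either name. In the series title UEIS is a micropeptide that weakens cGAS-STING and type I interferon signalling. No promoter, Cre driver, age or sex was given for either group, and pooling of mice is not mentioned. Each group was 1 library, so no difference between them was tested, and no spread between mice is known.

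The libraries held 9527 barcodes and 92764697 UMIs in UEIS LSL and 9734 barcodes and 99404988 UMIs in UEIS KI, with medians of 8117 and 8759.5 UMIs per barcode, and 34 barcode sequences occurred in both. After limits on depth and removal of likely doublets, 8793 and 8969 cells were used, with no limit on mitochondrial UMIs. Cells were assigned by the markers seen in each barcode, and 6398 and 6909 were macrophages. The CD45 gene Ptprc was seen in 77.6% and 77.9% of macrophages. It was seen in 11.2% and 6.91% of the 349 and 188 barcodes that carried collagen markers, which goes against the label of the sort, and these are called collagen-gated cells. Shares are percentages of the UMIs of a group of cells. Gene levels are UMIs scaled to the total of the group (CPM), not divided by gene length because only the 3' end is counted. Ratios are log2 of UEIS KI over UEIS LSL unless another pair is named, and parentheses hold 95% intervals that cover counting error only.

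In macrophages the nuclear genes made up 2.35% of UMIs in UEIS LSL and 2.55% in UEIS KI, with a log2 ratio of 0.12 (0.11 to 0.12). The mitochondrial messenger RNAs made up 0.811% and 0.809%, a log2 ratio of -0.0035 (-0.0090 to 0.0021). As a mean over cells, in which shallow and deep cells weigh equally, these ratios were 0.078 and 0.15, and with cells thinned to 2000 UMIs 0.093 and 0.054. The nuclear share thus stood higher in UEIS KI while the mitochondrial share of the summed UMIs was level within counting error, and the nuclear UMIs per mitochondrial UMI were 2.90 and 3.15. The mitochondrial ribosomal RNAs made up 0.0692% and 0.0742%, a log2 ratio of 0.10.

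Among the nuclear genes the highest levels were those of complex IV and ATP synthase subunits. Cox4i1, the common form of a regulatory subunit of complex IV, was at 1126 CPM in UEIS LSL and 1302 CPM in UEIS KI. Cox8a, a small structural subunit of the same complex, was at 932 and 951 CPM, and Cox5a, another of its subunits, at 681 and 789 CPM. Atp5e, the epsilon subunit of the ATP synthase head, was at 935 and 898 CPM. The tissue isoforms of complex IV were low beside their common partners. Cox6a2, the heart and muscle form, was at 2.90 and 1.82 CPM where Cox6a1 was at 295 and 353 CPM. Cox7a1, another muscle form, was at 12.5 and 14.5 CPM where Cox7a2 was at 448 and 497 CPM. Cox6b2, the testis form, was at 6.50 and 5.51 CPM where Cox6b1 was at 520 and 556 CPM. Cox4i2, the form known from lung and low oxygen, was at 6.96 and 8.07 CPM, which was 0.614% and 0.616% of the UMIs of Cox4i1 and Cox4i2 together.

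The mitochondrial messenger RNAs differed widely in level, although they are cut from long shared transcripts. mt-Cytb, which encodes cytochrome b of complex III, was highest at 3994 CPM in UEIS LSL and 3864 CPM in UEIS KI. The complex I subunit genes mt-Nd4 (1717 and 1708 CPM), mt-Nd1 (1102 and 1255 CPM) and mt-Nd2 (537 and 525 CPM) followed. mt-Co1, mt-Co2 and mt-Co3, which encode the catalytic core of complex IV, were at 272 and 268, at 33.8 and 32.5, and at 125 and 132 CPM. The ATP synthase genes mt-Atp6 and mt-Atp8 were at 195 and 179 CPM and at 12.8 and 11.9 CPM. The remaining complex I genes were mt-Nd5 at 99.4 and 102 CPM, mt-Nd3 at 16.8 and 7.21, mt-Nd6 at 2.56 and 2.58 and mt-Nd4l at 1.19 and 0.959. In the plot of their levels by library the points of both libraries lie close together for each gene except mt-Nd3. Of the 13 genes, 6 have a copy in the annotated nuclear genome that matches at least 98% of 90 or more of the last 400 bases, and reads from such genes cannot all be assigned, so their levels are uncertain. These are mt-Co1, mt-Co2, mt-Co3, mt-Atp6, mt-Nd3 and mt-Nd4l. The same holds for 18 of the 88 nuclear genes.

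**Figure D1:**
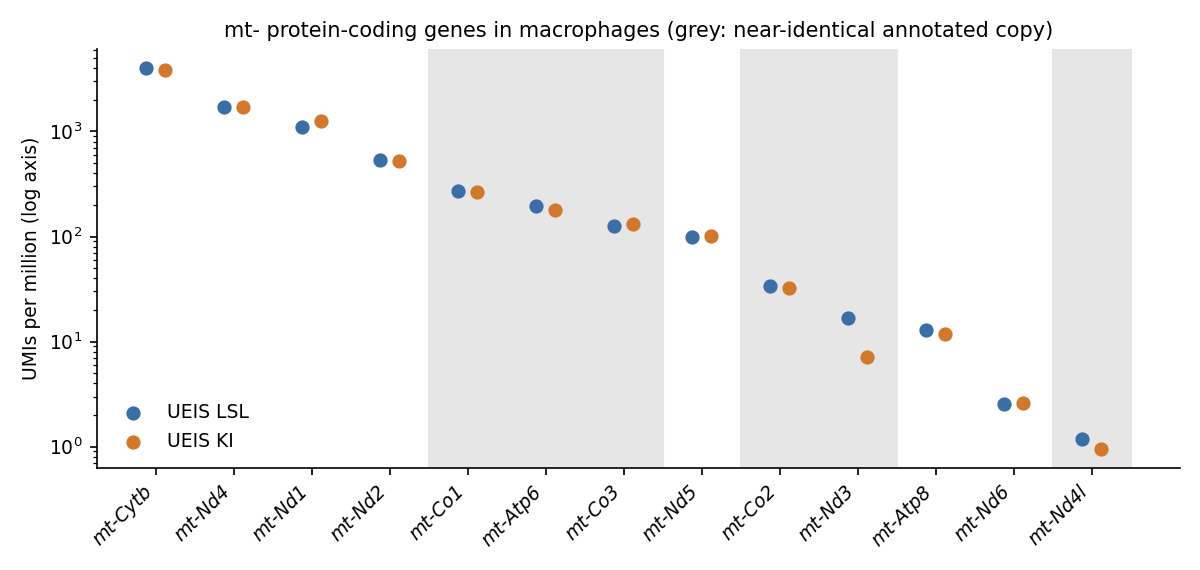
Level of each of the 13 mitochondrial messenger RNAs in macrophages, in CPM on a log axis, with 1 point per library. Grey marks genes with a near-identical annotated copy. mt-Cytb is highest at 3994 and 3864 CPM, and mt-Nd3 is the gene whose points lie farthest apart, at 16.8 and 7.21 CPM.

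Of the 88 nuclear genes, 77 had a higher level in UEIS KI macrophages than in UEIS LSL macrophages, against 59.5% of all 13489 genes with at least 50 UMIs there, a limit that all 88 and all 13 mitochondrial messenger RNAs passed. For 66 of the 88 the whole interval lay above 1, against 32.5% of all genes, and for 6 it lay below, against 18.9%. Whether an interval excludes 1 depends on the UMIs of a gene, and all genes were not matched to the 88 for level. The differences were small. None of the 88 was at least 1.5-fold higher (5.75% of all genes), and 4 were at least 1.2-fold higher (15.3%), so large differences were no more frequent than among genes at large. Cox6a2 was the 1 gene at least 1.5-fold lower (4.06%) and at least 1.2-fold lower (9.44%); with stricter gates its ratio was -0.55, short of 1.5-fold, and over all cells 0 nuclear genes were 1.5-fold lower. The median log2 ratio was 0.14 over the nuclear genes, 0.047 over all genes and -0.030 over the mitochondrial messenger RNAs.

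**Figure D2:**
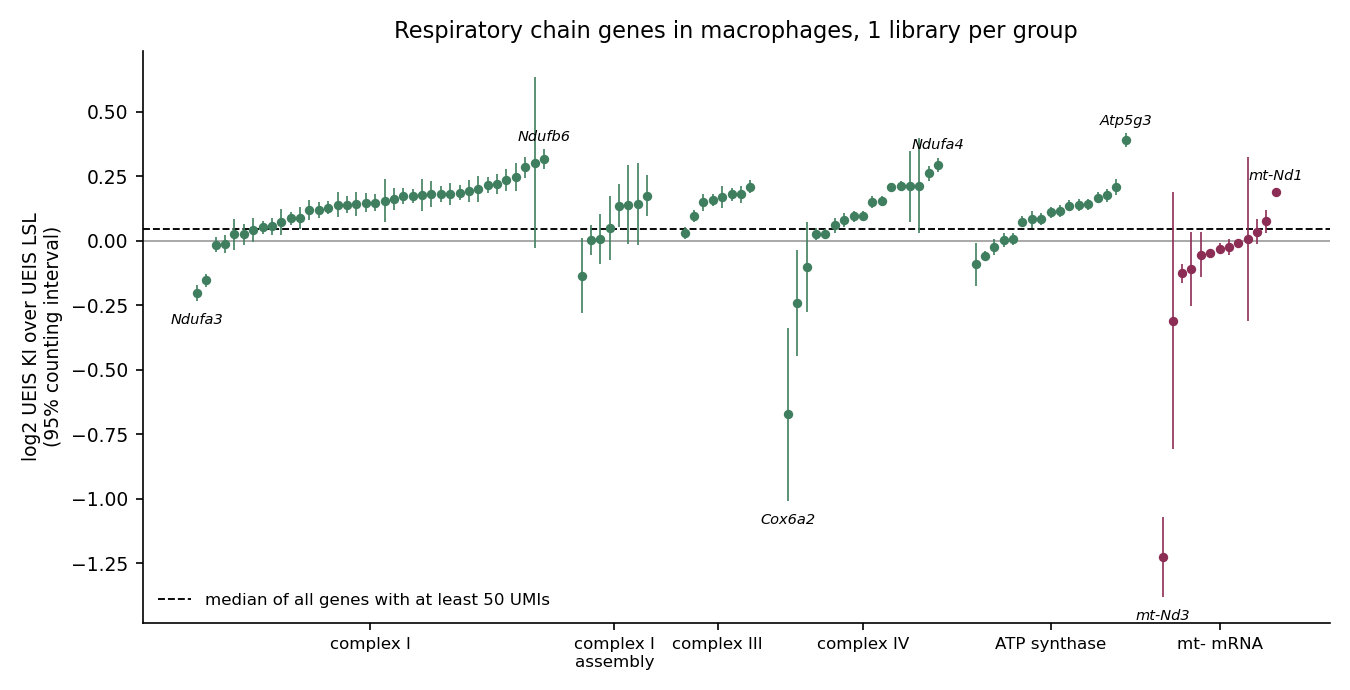
Log2 ratio of UEIS KI over UEIS LSL in macrophages for each nuclear gene (green) and mitochondrial messenger RNA (purple), grouped by complex, with 95% counting intervals; the dashed line is the median of all genes. Most nuclear points lie above the dashed line at 0.047, and Cox6a2 at -0.67 and mt-Nd3 at -1.22 lie far below it.

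By complex, the summed log2 ratios were 0.11 for complex I, 0.14 for complex III, 0.14 for complex IV, 0.097 for ATP synthase and 0.064 for the complex I assembly factors. All 8 complex III subunits had intervals above 1. Among them Uqcrfs1, the Rieske iron-sulfur protein, was at 223 and 253 CPM and Uqcr11, a small accessory subunit, at 391 and 452 CPM. The 4 genes past 1.2-fold came from complexes I and IV and ATP synthase. Atp5g3, one of the genes for the proton-carrying c subunit of ATP synthase, was at 292 CPM in UEIS LSL and 382 CPM in UEIS KI, with a ratio of 0.39 (0.36 to 0.42). Ndufb6, an accessory subunit of complex I, was at 152 and 190 CPM (0.32). Ndufa4, named for complex I but a subunit of complex IV, was at 297 and 365 CPM (0.30). Ndufv2, a core subunit of complex I that carries an iron-sulfur cluster, was at 130 and 158 CPM (0.28). Below these stood Cox6a1 at 295 and 353 CPM (0.26) and Cox4i1 (0.21). All of these genes were higher in the UEIS KI library.

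A few nuclear genes were lower in UEIS KI. Cox6a2 had 171 and 133 UMIs in macrophages and a log2 ratio of -0.67 (-1.01 to -0.34). Ndufa3 and Ndufb1, both accessory subunits of complex I, were at 252 and 220 CPM (-0.20) and at 442 and 398 CPM (-0.15). Cox6b2 had a ratio of -0.24, Atp5e of -0.057 and Atp5g2, another c subunit gene, of -0.092 at 37.4 and 35.1 CPM. Thus the c subunit genes Atp5g2 and Atp5g3 had ratios of opposite sign; Atp5g2 is among the genes with a near-identical copy. Cox7a2l, counted here with complex IV, was at 289 and 302 CPM (0.060).

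Promoter sequence was compared over the nuclear genes, since many of them are known targets of the transcription factors NRF1, GABP and YY1. RefSeq windows from 250 bases before to 50 after the start (GRCm38.p6) were found for 72 of the 88 genes by identifier or symbol. A form of the NRF1 motif, GCGCA then any base then GCGC on either strand, occurred in 17 of the 72 (23.6%) and in 5.19% of 27025 genes. Read in the same way, AAGATGGCG, a form of the YY1 motif, occurred in 8 (11.1%) and in 1.64%. CCGGAAGTG, a form of the GABP motif, occurred in 2 (2.78%) and in 2.25%, and ACGTG, the core of the hypoxia response element, in 17 (23.6%) and in 21.8%. The windows below belong to genes picked from the 6 that stood highest in UEIS KI, and capitals mark the NRF1 letters. Ndufb6, Ndufv2 and Cox4i1 of those 6 are not shown. Atp5g3 (chr2:73911277-73911576, minus strand) has 1 match just after the start, Cox6a1 (chr5:115348909-115349208, minus strand) has 2 before it, and Ndufa4 (chr6:11907401-11907700, minus strand) has 0, so genes with similar ratios had windows with and without these letters.
Atp5g3: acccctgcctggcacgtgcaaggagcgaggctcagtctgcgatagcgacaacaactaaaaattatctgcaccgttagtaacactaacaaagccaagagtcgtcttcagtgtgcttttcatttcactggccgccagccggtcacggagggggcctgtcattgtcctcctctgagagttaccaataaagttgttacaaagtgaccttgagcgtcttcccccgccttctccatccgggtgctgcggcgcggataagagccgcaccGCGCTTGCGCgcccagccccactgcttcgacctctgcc
Cox6a1: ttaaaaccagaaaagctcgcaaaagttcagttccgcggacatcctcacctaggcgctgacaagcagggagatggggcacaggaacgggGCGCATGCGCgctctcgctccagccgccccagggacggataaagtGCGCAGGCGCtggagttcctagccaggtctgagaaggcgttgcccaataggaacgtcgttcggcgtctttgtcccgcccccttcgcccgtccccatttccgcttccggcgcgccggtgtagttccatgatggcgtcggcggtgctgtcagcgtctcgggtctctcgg
Ndufa4: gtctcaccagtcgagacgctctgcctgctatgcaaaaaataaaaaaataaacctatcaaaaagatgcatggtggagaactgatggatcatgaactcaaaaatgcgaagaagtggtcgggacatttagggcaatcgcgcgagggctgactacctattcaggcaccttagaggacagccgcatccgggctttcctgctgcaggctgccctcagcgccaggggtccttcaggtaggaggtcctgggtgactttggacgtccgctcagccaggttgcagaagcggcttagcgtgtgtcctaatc

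Among the mitochondrial messenger RNAs, mt-Nd1 had the highest ratio in macrophages, 0.19, and mt-Nd3 the lowest. The intervals of 2 genes lay above 1 (32.5% of all genes) and those of 4 below (18.9%). Past 1.5-fold or 1.2-fold in either direction stood 1 gene, mt-Nd3, which was lower. Of all genes 4.06% and 9.44% were lower by these limits, and 5.75% and 15.3% higher. mt-Nd3, a small core subunit of complex I, had 992 UMIs in UEIS LSL and 526 in UEIS KI, with a ratio of -1.22 (-1.38 to -1.07). Of the genes that flank it in the mitochondrial genome, mt-Co3 had a ratio of 0.076 (0.032 to 0.12), mt-Nd4l of -0.31 (-0.81 to 0.19) and mt-Nd4 of -0.0068 (-0.019 to 0.0052). In the collagen-gated cells mt-Nd3 had 59 and 11 UMIs (-1.47), and over all cells it was at 15.7 and 7.04 CPM (-1.16). The UEIS KI level was lower in monocytes (10 and 5 UMIs), cDC2 cells (19 and 3) and T cells (11 and 5) as well, on few molecules.

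mt-Nd3 lies at chrM:9459-9806 (plus strand, GRCm38), and an annotated pseudogene, Gm28438, at chr1:24612775-24613119 (minus strand) repeats it. The first 40 bases of both transcripts are shown because 1 difference, T3C, was the sole one over the 345 bases compared; positions count from 1 at the 5′ end, the first letter is that of mt-Nd3, and capitals mark it.
mt-Nd3: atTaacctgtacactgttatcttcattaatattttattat
Gm28438: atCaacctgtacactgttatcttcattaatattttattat
Reads from the 3' end of these RNAs therefore match both places. Gm28438 was counted at 30.8 and 29.9 CPM in macrophages, above mt-Nd3 itself, with a ratio of -0.041 (-0.13 to 0.049). The sum of both was 47.6 and 37.1 CPM, a log2 ratio of -0.36 (-0.44 to -0.28), smaller than that of mt-Nd3 alone. The bases of the reads were not analysed here, so whether the RNA itself or the assignment of its reads differs between the libraries was not tested. Copies of the other mitochondrial genes held at most 66 UMIs in either library.

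The level mitochondrial share of macrophages hid differences by depth. Macrophages with at least 2000 UMIs were divided into 5 equal groups by depth. In the shallowest group the mitochondrial share was 0.921% in UEIS LSL and 1.19% in UEIS KI (0.37), and in the deepest 0.785% and 0.748% (-0.070). Between them the mitochondrial ratios were 0.023, -0.051 and 0.010. The nuclear share was 2.08% and 2.08% (-0.0052) in the shallowest and 2.58% and 2.79% (0.11) in the deepest, with ratios of 0.040, 0.066 and 0.095 between them. The nuclear ratio was thus higher in each deeper group, and the mitochondrial ratio was far higher in the shallowest group than in the other 4, where it took both signs. Beside this, UEIS KI macrophages had more UMIs per cell, with medians of 9326 against 8203, and more barcodes with over 10% mitochondrial UMIs, 56 against 27. The median macrophage with at least 2000 UMIs had nuclear shares of 2.24% and 2.34% and mitochondrial shares of 0.743% and 0.744%. Markers of other cells in macrophages also differed: the 8 neutrophil markers summed to 108 and 265 CPM, all 8 seen in both, the 10 cDC2 markers to 364 and 125 CPM, all 10 seen in both, the 9 B cell markers to 58.5 and 20.5 CPM, 7 seen in both, the 8 collagen and other fibroblast markers to 49.99 and 30.9 CPM, all 8 seen in both, and the 12 dissociation stress genes to 13422 and 11064 CPM. Of the neutrophil sums Mmp9 alone held 80.1 and 224 CPM, and of the cDC2 sums Mgl2 alone held 230 and 34.3 CPM. Of the B cell sums Ighm alone held 43.6 and 11.9 CPM, so most of each of these differences lay in 1 gene. The part of depth, damaged cells or other cells in the ratios was not tested.

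Across cell types with at least 30 cells in each library, macrophages had the highest nuclear share and B cells the highest mitochondrial share in both libraries. Collagen-gated cells were next to B cells in mitochondrial share in UEIS LSL only, where their intervals overlapped. In UEIS KI they lay below macrophages and T cells. Types differed in depth, with medians of 8203 and 9326 UMIs in macrophages against 3463 and 2214.5 in T cells. Macrophages of 2000 to 5447 UMIs had nuclear shares of 2.08% and 2.08%. The part of depth in this ranking was not tested. Monocytes (164 and 191 cells) had nuclear shares of 2.20% and 2.38% and mitochondrial shares of 0.707% and 0.743%. Next came cDC2 cells (165 and 81), conventional dendritic cells that prime helper T cells, at 2.06% and 2.13% nuclear and 0.577% and 0.537% mitochondrial. T cells (171 and 144) were at 2.02% and 2.12% nuclear and 0.728% and 0.807% mitochondrial. The nuclear intervals of T cells and cDC2 cells overlapped in both libraries, while their mitochondrial shares were clearly apart. Mature dendritic cells (84 and 53) had shares of 1.88% and 1.81% nuclear and 0.535% and 0.626% mitochondrial. The balance of both genomes, as nuclear UMIs per mitochondrial UMI, was 3.58 and 3.97 in cDC2 cells against 1.70 and 1.59 in B cells and 2.78 and 2.63 in T cells. Among the nuclear genes with at least 50 UMIs in a type, the level was higher in UEIS KI for 62 of 77 in monocytes, against 54.7% of all genes there, for 51 of 79 in cDC2 cells (53.4%), for 52 of 76 in T cells (53.6%) and for 19 of 83 in collagen-gated cells (51.9%). The plot of shares by cell type shows that macrophages and monocytes lay above the other types in nuclear share in both libraries. With stricter gates the nuclear ratio turned to -0.0028 in cDC2 cells and to 0.033 in collagen-gated cells, and from 3000 UMIs the mitochondrial ratio of T cells turned to -0.027.

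**Figure D3:**
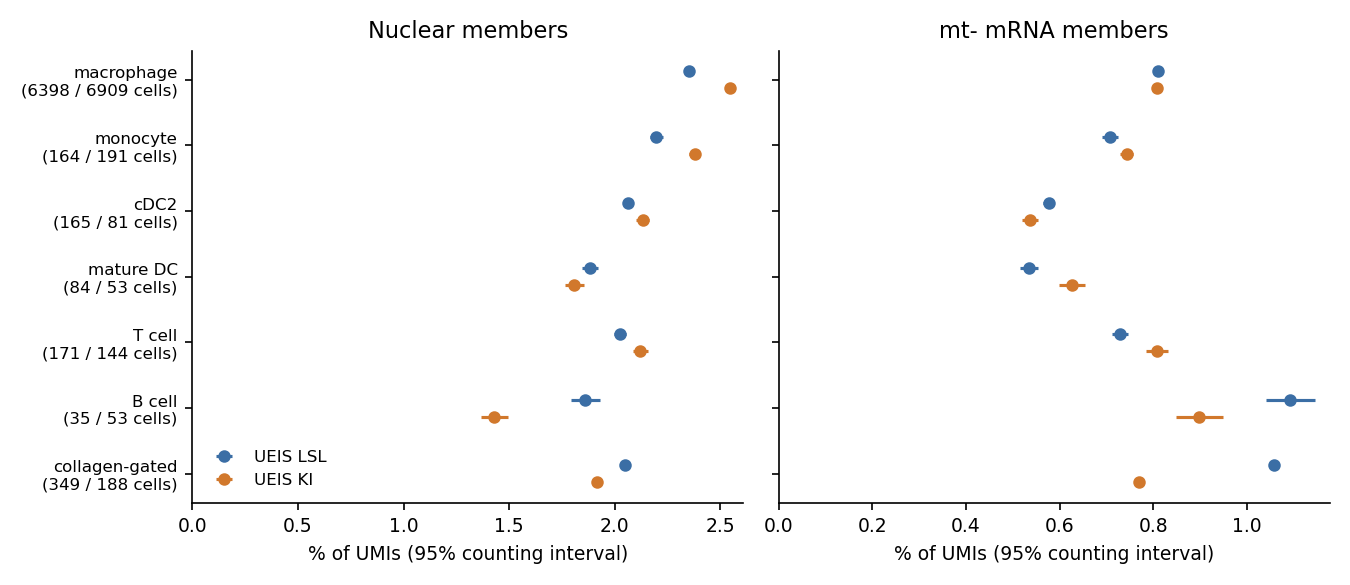
Share of UMIs from nuclear genes (left) and mitochondrial messenger RNAs (right) by cell type and library, with 95% counting intervals and cell numbers for UEIS LSL and UEIS KI. Macrophages are highest for nuclear genes at 2.35% and 2.55%, and the collagen-gated cells go from 1.06% to 0.769% for mitochondrial messenger RNAs.

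B cells (35 and 53) had nuclear shares of 1.86% and 1.43%, a log2 ratio of -0.38 (-0.46 to -0.30), and mitochondrial shares of 1.09% and 0.898% (-0.28). Beside this, immunoglobulin genes took 1.11% of B cell UMIs in UEIS LSL and 14.8% in UEIS KI, where 1 barcode had over 20%. Of the UMIs that were left, the nuclear share was 1.88% and 1.68% and the mitochondrial share 1.11% and 1.05%.

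The collagen-gated cells showed the largest mitochondrial difference between libraries among these types. Their mitochondrial share was 1.06% in UEIS LSL and 0.769% in UEIS KI, with a ratio of -0.46 (-0.48 to -0.44), and without the genes that have copies -0.50. Their nuclear share was 2.05% and 1.92% (-0.095). Of 12 mitochondrial messenger RNAs measured, 8 were lower in UEIS KI by at least 1.2-fold, against 12.5% of all genes, and 4 at least 1.5-fold lower, against 6.67%. mt-Cytb was at 5258 and 3461 CPM, mt-Nd1 at 1766 and 1372 CPM and mt-Nd2 at 738 and 478 CPM, while mt-Co1 was at 333 and 377 CPM. The ribosomal RNAs were lower too, at 0.121% and 0.0894%. Beside this, the 8 fibroblast markers summed to 26513 and 19462 CPM in these cells, all 8 seen in both, and the 8 epithelial markers to 1.69 and 3.81 CPM, with 2 and 4 seen. Whether the mix of cells in this gate differs between the libraries was not tested.

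Isoforms set some types apart. Ndufa4l2, a paralogue of Ndufa4 that is known to be induced by hypoxia-inducible factor 1 and to restrain complex I activity, was at 42.1 and 77.4 CPM in collagen-gated cells and at 8.61 and 8.03 CPM in macrophages. It was 10.2% (9.15 to 11.4) and 21.9% (19.7 to 24.3) of the Ndufa4 and Ndufa4l2 UMIs of collagen-gated cells, 2.81% and 2.15% in macrophages, and 0 of 88 and 0 of 40 UMIs in mature dendritic cells. Ndufa6, an accessory subunit of complex I, was at 410 and 432 CPM in cDC2 cells against 218 and 216 CPM in macrophages, and at 1.98-fold the median of the other types. The 16 and 6 cDC1 cells, another conventional dendritic type, had 471 and 299 CPM on 74 and 19 UMIs. Ndufa6 stood just under the 2-fold limit for naming and is given because its cDC2 levels in both libraries lay together; it was chosen after its values were seen. Cox6a2 was at 160 and 183 CPM in the 6 and 5 plasmacytoid dendritic cells, on 4 and 6 UMIs, where macrophages had 2.90 and 1.82 CPM.

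Free RNA adds to each droplet, and its part in these shares was not tested. Macrophage markers in the collagen-gated cells, which should lack them, summed to 486 and 466 CPM against 17022 and 16039 CPM in macrophages. The 933 and 901 barcodes that met no gate had median depths of 2819 and 1494 UMIs, mitochondrial shares of 1.34% and 2.04%, and 114 and 223 barcodes with over 10% mitochondrial UMIs.

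Macrophage states were compared next, each as the 10% of the macrophages of both libraries, among those with at least 2000 UMIs, with the highest share of UMIs from a marker set (called high for it) against all other macrophages of the library. A state defined in this way is a range of a score and not a cell type, and 513 of the cells lie within 2 percentiles of each limit. None of the markers is one of the 104 genes. The mitochondrial messenger RNA share departed most, of the 8 states, in the macrophages highest in Mmp12, Hilpda and other hypoxia-response markers (716 and 566 cells, Mmp12 Hilpda-high). There the mitochondrial share was 0.361% against 0.841% in UEIS LSL and 0.426% against 0.818% in UEIS KI, log2 ratios of -1.22 and -0.94. The nuclear share was 1.78% against 2.41% and 1.90% against 2.60% (-0.44 and -0.46). The mitochondrial ribosomal RNAs were higher, 0.0981% against 0.0631% and 0.111% against 0.0680% (0.64 and 0.71). The plot of states shows both libraries side by side for each of these 3 sums.

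**Figure D4:**
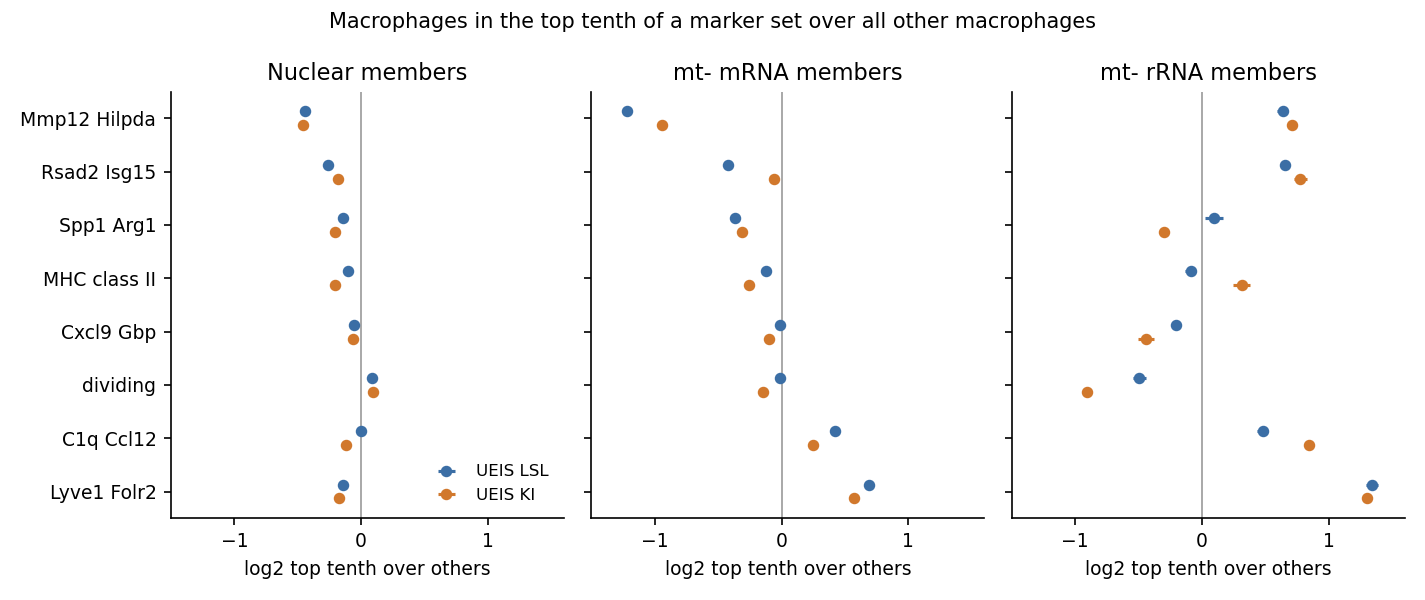
Log2 ratio of the share of UMIs in macrophages high for a marker set (the top 10%) over that in the other macrophages, by state and library, for nuclear genes, mitochondrial messenger RNAs and mitochondrial ribosomal RNAs, with 95% counting intervals. Mitochondrial messenger RNAs run from -1.22 and -0.94 in Mmp12 Hilpda-high cells to 0.69 and 0.57 in Lyve1 Folr2-high cells.

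In Mmp12 Hilpda-high macrophages, 33 of the 88 nuclear genes were at least 1.5-fold lower in both libraries, against 27.1% of all 11938 genes, and 67 were at least 1.2-fold lower, against 40.3%. The median gene of any kind was itself lower there, at -0.43 and -0.41, beside -0.49 and -0.54 for the nuclear genes and -0.84 and -0.75 for the mitochondrial messenger RNAs. So nuclear genes were called lower more often than all genes, above all at 1.2-fold. A call also needs an interval that excludes 1, which depends on UMIs, and the genes compared were not matched for level. The medians of the nuclear genes lay only somewhat below those of all genes. The medians of the mitochondrial messenger RNAs lay further below. Of these messenger RNAs, 7 of 13 were at least 1.5-fold lower in both libraries. mt-Cytb was at 1644 against 4166 CPM in UEIS LSL and 1851 against 3936 CPM in UEIS KI, and mt-Nd4 at 645 against 1794 and 836 against 1731 CPM. mt-Nd1 was at 439 against 1145 and 550 against 1274 CPM. The difference was uneven: mt-Nd5 was at 84.4 against 98.2 and 96.0 against 99.2 CPM, and mt-Co1 was higher, at 312 against 261 and 346 against 254 CPM (0.26 and 0.45), though mt-Co1 is among the genes with a copy. mt-Rnr2 was at 854 against 518 and 961 against 557 CPM.

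Among the nuclear groups, the complex I assembly factors were lowest in these cells, with log2 ratios of -0.90 and -0.80, and complex IV was nearest to the other macrophages, at -0.36 and -0.38. ATP synthase was at -0.52 and -0.52, complex I at -0.44 and -0.47 and complex III at -0.39 and -0.43. Atp5a1, the alpha subunit of ATP synthase, was at 192 against 419 CPM in UEIS LSL and 232 against 448 CPM in UEIS KI. Uqcrc1, a core subunit of complex III, was at 120 against 235 and 131 against 258 CPM. Ndufv3, an accessory subunit of complex I, was slightly higher, at 392 against 327 and 418 against 361 CPM.

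The balance of isoforms differed in the same cells, though not in these alone. Ndufa4l2 was at 61.6 against 3.22 CPM in UEIS LSL and 71.4 against 3.09 CPM in UEIS KI, 19.2-fold and 23.1-fold higher (log2 4.26 and 4.53). Ndufa4 was at 112 against 316 and 104 against 386 CPM, 2.82-fold and 3.71-fold lower. Ndufa4l2 thus made up 35.4% (32.4 to 38.6) and 40.7% (37.5 to 44.0) of the UMIs of the pair, against 1.01% and 0.795% in the other macrophages. Cox4i2 was at 22.2 against 5.34 and 23.9 against 6.88 CPM (log2 2.06 and 1.80), while Cox4i1 was at 923 against 1148 and 1098 against 1321 CPM, so Cox4i2 reached 2.35% and 2.13% of that pair. Ndufa4l2 and Cox4i2 were the 2 nuclear genes at least 1.5-fold higher in both libraries, against 5.5% of all genes. Other isoforms did not do this in both: Cox7a1 had ratios of 0.66 (0.35 to 0.97) and 0.046 (-0.30 to 0.38), and Cox6a2 of 1.05 (0.43 to 1.63) and 0.60 (-0.32 to 1.40).

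Macrophages were then divided into 10 equal groups along the Mmp12 Hilpda score. Ndufa4 went from 443 and 507 CPM in the lowest group to 112 and 104 CPM in the highest. Ndufa4l2 was at most 1.90 CPM through group 7 and then 8.05 and 5.60, 19.5 and 15.5, and 61.6 and 71.4 CPM. The mitochondrial share went from 0.991% and 1.13% to 0.361% and 0.426%. Beside this, Lyve1 went from 121 and 534 CPM in the lowest group to 3.67 and 22.0 CPM in the highest, and the part of Lyve1-positive cells was not tested. In UEIS LSL Ndufa4 was below its lowest-group level in every other group, while in UEIS KI it was at 591 and 574 CPM in groups 2 and 3, above the 507 CPM of the lowest group, and below that from group 4 on. Ndufa4l2 appeared at the upper end, as the plot along the score shows.

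**Figure D5:**
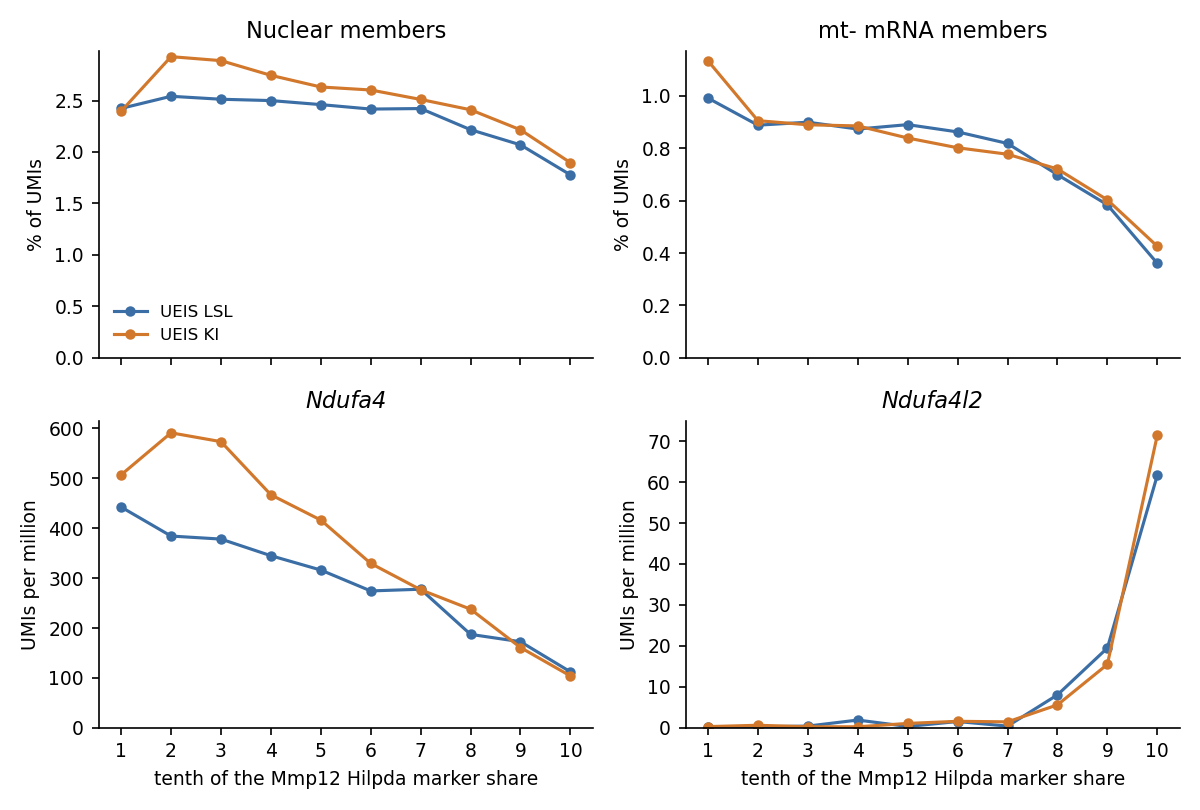
Nuclear share, mitochondrial messenger RNA share (% of UMIs), and levels of Ndufa4 and Ndufa4l2 (CPM) in macrophages by 10 equal groups of the Mmp12 Hilpda marker share, with 1 line per library. Ndufa4 goes from 443 and 507 to 112 and 104 CPM, and Ndufa4l2 stays at most at 1.90 CPM up to group 7 and reaches 61.6 and 71.4 CPM in the highest.

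Beside these values, the Mmp12 Hilpda-high macrophages had median depths of 6667 and 8602.5 UMIs against 8654 and 9782, and 0 of their barcodes had over 10% mitochondrial UMIs. Their 12 macrophage markers summed to 8382 and 9381 CPM against 17869 and 16499 CPM, all 12 seen in both. Neutrophil markers summed to 61.3 and 73.7 CPM against 112 and 280 CPM, all 8 seen in both. In the other macrophages Mmp9 alone held 88.3 and 242 CPM of these sums. In Mmp12 Hilpda-high macrophages S100a8 was the highest, at 41.8 and 56.5 CPM, so the direction of the sums rested on Mmp9. Monocyte markers summed to 1036 and 730 CPM against 663 and 595 CPM, all 10 seen in both, and dissociation stress genes to 10939 and 8912 CPM against 13641 and 11163 CPM. Their part in these ratios was not tested. Of these cells, 30.0% were also high for the Rsad2 Isg15 type I interferon set and 23.8% for the Spp1 Arg1 set.

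Macrophages highest in Lyve1, Folr2 and other resident macrophage markers (368 and 914 cells, Lyve1 Folr2-high) differed in the opposite direction in mitochondrial share. It was 1.25% against 0.775% in UEIS LSL and 1.12% against 0.756% in UEIS KI (0.69 and 0.57). All 13 mitochondrial messenger RNAs were higher in both libraries, against 40.3% of all genes, and 8 of them were at least 1.5-fold higher, against 11.9%. mt-Nd2 was at 933 against 505 and 900 against 470 CPM, and mt-Cytb at 5602 against 3851 and 4801 against 3682 CPM. The ribosomal RNAs were at 0.157% against 0.0620% and 0.155% against 0.0628%.

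The nuclear share differed in the opposite direction. It was 2.15% against 2.36% and 2.28% against 2.58% (-0.14 and -0.18), and 66 of the 88 were lower in both libraries, against 41.5% of all genes. Of these 3 were at least 1.5-fold lower, against 9.61% of all genes. Uqcrfs1 was at 136 against 228 and 147 against 264 CPM. Ndufa4 was the 1 nuclear gene at least 1.5-fold higher in both, at 556 against 285 and 572 against 344 CPM (0.96 and 0.73). Nuclear UMIs per mitochondrial UMI were 1.71 and 2.03 in these cells, against 4.93 and 4.45 in Mmp12 Hilpda-high macrophages. Beside this, these cells were shallower, with median depths of 6668.5 and 6171.5 UMIs against 8565 and 10229. Of their barcodes 8 of 368 and 16 of 914 had over 5% mitochondrial UMIs, against 10 of 5831 and 10 of 5707. Ribosomal protein genes took 8.46% and 8.12% of the UMIs of Lyve1 Folr2-high macrophages against 14.2% and 14.2% in other macrophages. Lyve1 Folr2-high cells were 5.94% of UEIS LSL and 13.8% of UEIS KI macrophages with at least 2000 UMIs, and 46.7% of them were also high for the C1q, Ccl12 and Fcrls set. Macrophages high for that set had mitochondrial shares of 1.03% against 0.774% and 0.923% against 0.777%.

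The other 6 states departed less in their nuclear and mitochondrial messenger RNA shares than Mmp12 Hilpda-high macrophages did. In macrophages high for the Spp1 Arg1 set the mitochondrial share was 0.621% against 0.803% and 0.658% against 0.816%, with all 13 messenger RNAs lower in both libraries, against 59.9% of all genes. There 5 of them were at least 1.2-fold lower, against 11.3% of all genes, and Ndufa4 was at 201 against 301 and 192 against 399 CPM. Ndufa4l2 made up 16.2% against 2.42% of the Ndufa4 and Ndufa4l2 UMIs in UEIS LSL, and 8.96% against 1.46% in UEIS KI. In those high for the Rsad2 Isg15 set the nuclear share was 1.998% against 2.40% and 2.26% against 2.56%, and the mitochondrial share 0.612% against 0.821% and 0.759% against 0.791%. Their mitochondrial ribosomal RNAs were higher, at 0.0979% against 0.0621% and 0.118% against 0.0691% (0.66 and 0.78), about as in Mmp12 Hilpda-high macrophages. Macrophages high for cell division markers had the highest nuclear share of these 8 states, 2.48% against 2.34% and 2.69% against 2.52%, with 62 of 88 genes higher in both libraries, against 47.4% of all genes, and 15 at least 1.2-fold higher, against 20.1%. The median gene of any kind was higher there by 0.076 and 0.057, beside 0.10 and 0.12 for the nuclear genes. Their ribosomal RNAs were lower, at 0.0488% against 0.0688% and 0.0418% against 0.0784% (-0.49 and -0.91). Their median depth was 14559.5 and 16620 UMIs against 8071 and 9003. Ndufa4l2 was low there, at 1.11 and 0.418 CPM on 8 and 6 UMIs. Macrophages high for the MHC class II and Cxcl9 Gbp sets had nuclear shares of 2.21% and 2.22% and of 2.28% and 2.44%.

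Within each of these 8 states the log2 ratio of the nuclear share was again above 0, from 0.0023 in C1q-high to 0.18 in Rsad2 Isg15-high macrophages, and the interval included 0 in the C1q and MHC class II states. The mitochondrial ratio was above 0 in 3 of the states and below 0 in 5.

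Genes of the same pathways outside the name rule were followed with lists, which were drawn up with earlier results of these data known. Between the libraries few of them passed 1.2-fold in macrophages, where 15.3% of all genes were at least 1.2-fold higher in UEIS KI and 9.44% lower. Of the 4 genes of succinate dehydrogenase (complex II), 1 was at least 1.2-fold higher in UEIS KI, Sdhc at 86.9 and 105 CPM, and the median log2 ratio was 0.096. Of 14 genes of the tricarboxylic acid cycle, 1 was, Mdh2 at 249 and 305 CPM, with a median of 0.15. Cyc1, the cytochrome c1 of complex III, was at 184 and 209 CPM, and Cycs, cytochrome c, at 245 and 253 CPM. Of 15 glycolysis genes 0 passed 1.2-fold in either direction, with a median of 0.15. Of 12 genes for transcription and copying of mitochondrial DNA 1, Mterf1a, was lower at 2.60 and 1.81 CPM, with a median of -0.027, and Tfam, the main packaging factor of that DNA, was at 20.7 and 20.01 CPM. Of 17 import genes, 19 assembly factors of complexes III and IV and 7 uncoupling and antioxidant genes, 0 passed 1.2-fold. Of 9 regulators of mitochondrial gene expression, Ppargc1b, a coactivator of mitochondrial biogenesis, was higher at 9.73 and 12.6 CPM (0.37), and Myc, a growth factor-responsive transcription factor, lower at 44.7 and 36.2 CPM (-0.30). Of 6 genes of mitophagy and the hypoxia switch, Pdk1, a kinase that holds pyruvate back from the tricarboxylic acid cycle, was higher at 35.5 and 50.1 CPM (0.50).

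In Mmp12 Hilpda-high macrophages more of the list genes passed 1.2-fold, where 40.3% of all genes were at least 1.2-fold lower in both libraries, 27.1% at least 1.5-fold lower and 8.44% at least 1.2-fold higher. All 4 succinate dehydrogenase genes were at least 1.2-fold lower in both libraries, Sdhb at 106 against 243 CPM in UEIS LSL and 113 against 248 CPM in UEIS KI. All 14 genes of the tricarboxylic acid cycle were lower by that measure, 9 of them at least 1.5-fold, with Idh2 at 39.4 against 139 and 48.7 against 154 CPM. Of 17 import genes 14 were lower and 1, Timm8b, was higher. Cyc1 was at 101 against 192 and 101 against 219 CPM. Of the 19 assembly factors 8 were lower, of the 12 mitochondrial transcription genes 4, and of the 9 regulators 3, near or below the share of all genes. Of 7 uncoupling and antioxidant genes 4 were lower and 1 higher, and of 6 genes of mitophagy and the hypoxia switch 1 was lower and 3 higher. All 15 glycolysis genes were at least 1.5-fold higher, against 5.5% of all genes, with Gapdh at 10866 against 4196 and 11160 against 4904 CPM. The markers of this state include Slc2a1, which is on the glycolysis list, and Bnip3, which is on the mitophagy list, so those 2 are no independent observation.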

How the data were processed

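RNA was measured in 2 libraries of CD45+ cells, 1 per group. The values deposited by the authors are raw UMI counts by gene and barcode from Cell Ranger on mm10, without normalisation. The submitters' processing notes name version 2.1.1 and the file header 8.0.1, and the annotation is not given in the sources used here. Coordinates, gene models and the search for copies (BLAST+ 2.17.0) used GENCODE on GRCm38.

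Barcodes with at least 500 UMIs and 200 genes were kept, and the highest Scrublet scores, 0.8% per 1000 barcodes (726 in UEIS LSL and 758 in UEIS KI), were removed as doublets (scanpy 1.11.5). A barcode was assigned to a type when it showed a minimum number of that type's markers, from 3 for T cells to 6 for macrophages. Barcodes of other types with at least 0.25 of the macrophage C1q level were set apart. Types are named by their markers and not by protein. State scores were the share of UMIs from a marker set in macrophages with at least 2000 UMIs.

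Counts were summed per library and group. With 1 library per group no test was made. Shares have exact Clopper-Pearson 95% intervals and ratios exact conditional binomial intervals (scipy 1.17.1), which cover counting error only. A gene counted as higher or lower when its ratio passed 1.5-fold or 1.2-fold with the interval on that side of 1 and it had at least 50 UMIs. Shares of all genes were not matched for level, and genes with many UMIs meet the interval condition more readily. Calls were also run on counts simulated with counting error alone, which cannot show how they hold against spread between cells or mice.

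Named genes were the 5 nuclear genes with the highest CPM and all mitochondrial messenger RNAs, the 6 highest and 6 lowest ratios ranked by the interval bound nearest 1, tissue isoforms and partners, genes at least 2-fold apart by type and genes at least 1.5-fold apart. Genes given beyond these were picked as examples of a group after their values were seen. The members, lists and markers were chosen with earlier results of these data known.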

Additional observations from a re-analysis of the deposited data

Results flagged for a closer look

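Results are given here because the difference between the libraries had opposite signs in different cell types or macrophage states, with counting intervals on opposite sides of 0. With 1 library per group, none of these differences was tested. Values are log2 ratios of UEIS KI over UEIS LSL.

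The nuclear share was higher in UEIS KI in macrophages (0.12), monocytes (0.11), T cells (0.068) and cDC2 cells (0.046). It was lower in B cells (-0.38), collagen-gated cells (-0.095) and mature dendritic cells (-0.058). With stricter gates it turned to 0.033 in collagen-gated cells and to -0.0028 in cDC2 cells, and without immunoglobulin UMIs the B cell shares were 1.88% and 1.68%.

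The share of mitochondrial messenger RNAs was higher in UEIS KI in mature dendritic cells (0.23), T cells (0.15) and monocytes (0.072). It was lower in collagen-gated cells (-0.46), B cells (-0.28) and cDC2 cells (-0.10). From 3000 UMIs it turned to -0.027 in T cells.

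Among macrophage states, the mitochondrial share was higher in UEIS KI in macrophages high for the Rsad2 Isg15 set (0.31), the Mmp12 Hilpda set (0.24) and the Spp1 Arg1 set (0.082). It was lower in those high for the C1q set (-0.16), the MHC class II set (-0.16), the Lyve1 Folr2 set (-0.16), dividing cells (-0.11) and the Cxcl9 Gbp set (-0.096).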

How the results depend on the processing

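No paired analysis was possible because each group held 1 library. The 8 main results gave 91 values under 15 other settings and 3 more chosen after seeing the data. Of these, 47 stayed within the counting interval of the reported value and 44 moved beyond it. Where a direction was called, 0 turned. The gene counts and highest-over-lowest folds among the 8 have no direction to turn. The mitochondrial ratio of macrophages (-0.0035), whose interval included 0, had none called, and its sign differed between settings. The 0 therefore covers only the other main results. Of 470 values of 52 other results, 336 stayed, 126 moved and 8 turned. The cause was not tested. No spread between mice is known, so differences of this size cannot be set against it, and depth limits what types of under 100 cells show.

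The nuclear log2 ratio in macrophages (0.12) was 0.12 with doublets kept, 0.11 without ribosomal protein UMIs, 0.078 as the mean over cells, 0.093 with cells thinned to 2000 UMIs, 0.11 with stricter gates, 0.10 with the same mix of states and 0.13 over all cells. The mitochondrial ratio (-0.0035) was -0.0092 with at most 5% mitochondrial UMIs, 0.0030 with doublets kept, -0.0090 without ribosomal protein UMIs, 0.15 as the mean over cells, -0.019 from 3000 UMIs, 0.054 thinned, -0.029 with stricter gates, -0.051 with the same mix and 0.0057 over all cells. At 1.2-fold 4 nuclear genes were higher, and with stricter gates and over all cells 0 were 1.5-fold lower.

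The quantity for types and states was chosen after the values were seen. The highest nuclear share by type was 1.48-fold the lowest, and 1.42 with doublets kept, 1.44 without ribosomal protein UMIs, 1.62 as a mean over cells, 1.36 from 3000 UMIs, 1.43 thinned and 1.38 with stricter gates. For mitochondrial shares it was 1.77-fold, and 1.68 with at most 10% mitochondrial UMIs, 2.42 as a mean over cells, 1.68 from 3000 UMIs, 2.64 thinned and 1.9998 with stricter gates.

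In Mmp12 Hilpda-high macrophages the nuclear log2 ratio, as the mean of both libraries (-0.45), was -0.42 with doublets kept, -0.42 as a mean over cells, -0.43 thinned, -0.35 with stricter gates, -0.35 for the top 20% and -0.39 within depth bins. The mitochondrial one (-1.08) was -1.03, -1.21, -1.20, -0.90, -0.78 and -1.15 in the same order, -1.20 without genes that have copies and -0.99 without Mmp12 in the score.

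The sign turned for mt-Nd2 (0.083) and mt-Cytb (0.0056) thinned, for the nuclear ratio of cDC2 cells (-0.0028) and collagen-gated cells (0.033) with stricter gates, for the mitochondrial ratio of T cells from 3000 UMIs (-0.027), for the mitochondrial share of the Cxcl9 Gbp state over other macrophages with the top 20% (0.00018), and for that of dividing cells with the top 20% (0.035) and within depth bins (0.20).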
